A study of Drosophila melanogaster with 3 samples.

Results

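The regions described here are the 245 peaks of CG10543 whose summit lay in an annotated exon and more than 500 bp from every annotated transcription start site (TSS). They were taken from 7545 peaks in all, the optimal set by irreproducible discovery rate (IDR), which retains regions with a similar rank in several replicates. The peaks came from chromatin immunoprecipitation followed by sequencing (ChIP-seq) with an antibody against GFP, in whole Drosophila melanogaster embryos of both sexes collected 0 to 24 h after laying. All 3 biological replicates carried the same transgene, a C-terminal GFP fusion of CG10543, and formed 1 group with no second condition. Embryos without the fusion were not analysed here, and signal independent of CG10543 cannot be told apart from its binding. The choice of members used position only and no signal value. Positions are on dm6. By the base under the summit, 62 members lay in a 5′ UTR, 76 in a 3′ UTR, 39 in coding sequence (CDS) and 68 in exons of noncoding RNA genes, here called other exons. The 245 summits lay in 243 intervals.

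Sequence-specific transcription factors bind mostly at promoters and at enhancers, which are often in introns or between genes. Exons also hold regulatory DNA: long 5′ UTRs can contain enhancers or start sites that the annotation lacks, 3′ UTRs can adjoin the start of a neighbouring gene, and coding exons can carry binding sites besides codons. Long noncoding RNAs of the fly often overlap enhancers or serve as the primary transcripts from which microRNAs are cut.

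The 30 bases centred on the summit are shown for the 3 members of each exon class with the highest pooled signal, among the arms from which sequence is printed here, because they are the best placed examples of what the tagged protein was found at. All are the plus strand, 5′ to 3′, from the RefSeq copy of Release 6, which has dm6 coordinates. Capitals mark a match to one of the 10 motifs named further on, in either strand.
dop, 5′ UTR (chr3L:15566655-15566684): acacacaaaAATAAAcgaaacgaaacgaaa
spen, 5′ UTR (chr2L:160861-160890): tgggtacggggcagccattgttgcgggcgt
cbt, 5′ UTR (chr2L:479012-479041): gcctagcttttggctaggccctctctttcc
sls, 3′ UTR (chr3L:2090057-2090086): tattttatgctaatattcaaatgaaaaata
CG7872, 3′ UTR (chrX:15579766-15579795): tacctggctggtcacaaaaaaagcacgcca
by, 3′ UTR (chr3R:9528658-9528687): gtggcgtttccaatagttaccaatcttatc
Pde1c, CDS (chr2L:11816562-11816591): gccgcaGCGCCATCTgccggctccgcagct
Dyro, CDS (chr3L:11291345-11291374): gatgcaaactcgccagtcgagccgctggcg
bif, CDS (chrX:11681790-11681819): agaaatcttctatttccaataccaattccg
lncRNA:Vinr, other exon (chrX:12751332-12751361): ccaatcccttacatgtttctgttaaaaatt
lncRNA:CR45531, other exon (chrX:6861676-6861705): ggagagcgggagtgtgagaggggagaacac
lncRNA:CR42839, other exon (chr3R:16005244-16005273): ttgttttttatgggagtcacgcgttacaaa
Of these 12 stretches, 2 held a named motif: the letters AATAAA at dop and a match to the CTCF core, AGNNGGCGC read on the other strand, at Pde1c. The other stretches shared no named motif.

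The GC box showed the largest difference in share between members and their flanks, and the CTCF core was also found in a larger share of members. Both were chosen for printing after those values were seen. The GC box, GGGCGG or its reverse complement, is the kind of site that Sp and Krüppel-like zinc finger proteins bind. It is shown in capitals for the strongest member of each exon class that holds it on the arms printed here: srp, a GATA factor gene, Tctp, a gene of a growth regulator, Dyro and the noncoding gene lncRNA:CR43334.
srp, 5′ UTR (chr3R:15993203-15993232): caacagtagaggCCGCCCcagctacaacaa
Tctp, 3′ UTR (chr3R:11211679-11211708): tatctgcttgaaGGGCGGggctctgcgccc
Dyro, CDS (chr3L:11291439-11291468): gaagtgttttagGGGCGGGGGCGGtacgga
lncRNA:CR43334, other exon (chr3L:632263-632292): gaacaccacccaCCGCCCaccacccaccgc
The CTCF core is the centre of the site of the insulator protein CTCF. It is shown for the 3 strongest members that hold it on the arms printed here, Pde1c, lncRNA:CR45668 and Hr4, a nuclear receptor gene.
Pde1c, CDS (chr2L:11816558-11816587): ttaggccgcaGCGCCATCTgccggctccgc
lncRNA:CR45668, other exon (chrX:5899474-5899503): gctctctctaGCGCCATCTcgcttacgcat
Hr4, 3′ UTR (chrX:2006000-2006029): ttcctcagtgGCGCCACCTgtatttagaga
In these 2 sets capitals mark only the GC box or the CTCF core, and matches to other named motifs stay in lower case. The CTCF matches lay 4 and 5 bp from the summit at Pde1c and Hr4 and 77 bp from it at lncRNA:CR45668. The GC boxes shown lay 65 to 97 bp from their summits. The exon class given is that of the summit, and the Dyro stretch lies outside the coding exon of 33 bp under its summit. A match describes the letters only and is no evidence that a given factor binds.

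Exons away from start sites held a small part of the peaks. The members were 3.25% of the IDR peaks (95% interval 2.86 to 3.67%). The same positions held 7.49% (7.13 to 7.86%) of the 20036 regions called on the pooled replicates without overlap to an IDR peak. These are called weaker regions below. The depositors labelled the pooled list as peaks and background, so some weaker regions may be background and not weak binding. Of the bases of the 6 arms, the same positions held 19.8%. Among the 7545 strongest regions of each replicate, the share was 3.61%, 3.41% and 3.00% for replicates 1, 2 and 3, a mean of 3.34% ± 0.311 (SD, n = 3). All 3 replicates thus lay below the share of the weaker regions. No test was run over peaks, which are not replicates. The intervals here and below are exact Clopper-Pearson 95% intervals and cover the counting of peaks only, since the files hold no read counts and sequencing depth is unknown.

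The exon classes fell unequally within this share. Coding sequence made up 13.1% of genome bases and 3.10% of the weaker regions, and 0.517% of the IDR peaks (0.368 to 0.706%). In the replicates the CDS share was 0.451%, 0.596% and 0.623%. 3′ UTRs held 1.01% of IDR peaks (0.794 to 1.26%), 2.38% of weaker regions and 5.06% of bases. For 5′ UTRs the values lay close together, at 0.822% of IDR peaks (0.631 to 1.05%), 1.03% of weaker regions and 0.779% of bases. Other exons behaved likewise, with 0.901% (0.701 to 1.14%), 0.978% and 0.820%. Seen over the members, CDS was 15.9% of them (11.6 to 21.1%) against 41.4% of the weaker exonic regions and 66.3% of exonic bases. 5′ UTRs were 25.3% of members (20.0 to 31.2%) against 13.8% and 3.94%. Other exons were 27.8% (22.2 to 33.8%) against 13.1% and 4.15%, and 3′ UTRs 31.0% (25.3 to 37.2%) against 31.8% and 25.6%.

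**Figure D1:**
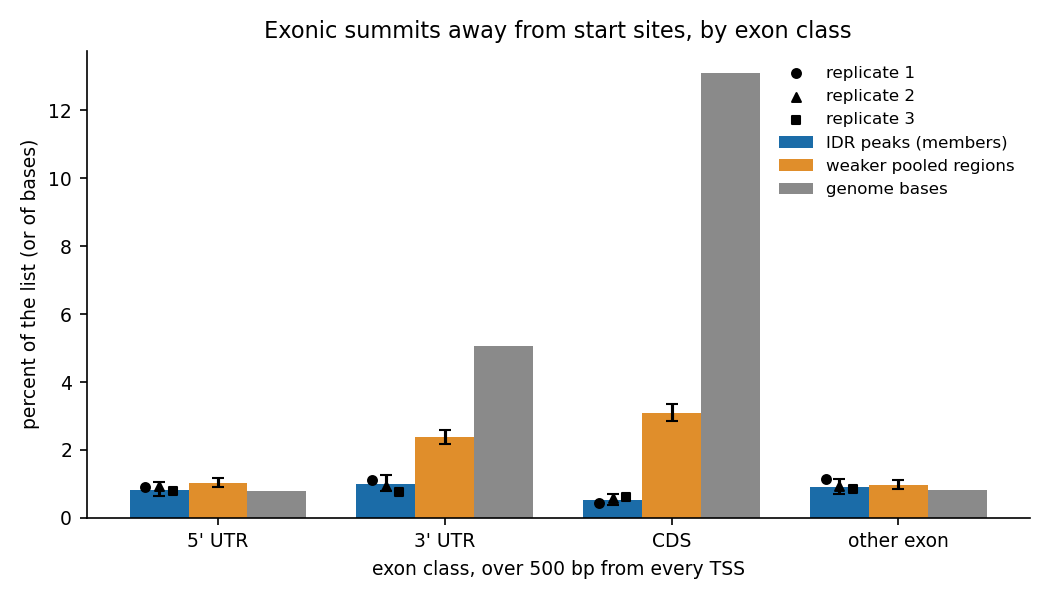
Share of summits in each exon class over 500 bp from every TSS, in percent of the list, for the IDR peaks (blue), the weaker pooled regions (orange) and genome bases (grey), with exact 95% intervals and the 3 replicates as black symbols. The CDS bars run from 0.517% of IDR peaks to 13.1% of bases, while the 3 bars of 5′ UTRs and of other exons lie between 0.779% and 1.03%.

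The exonic share also moved with the strength of the regions. In 10 groups of 754 or 755 IDR peaks ordered by pooled signal, it was 2.12% in the strongest group, between 2.65% and 3.31% in the second to the seventh, and then 4.11%, 4.91% and 3.44%. Among 4 groups of 5009 weaker regions it went on from 4.83% in the strongest group to 6.23%, 8.03% and 10.9% in the weakest. CDS summits accounted for most of that later rise, with 1.06%, 2.00%, 3.63% and 5.71% of the 4 groups. The 5′ UTR share went from 1.18% to 0.958% over the same groups.

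**Figure D2:**
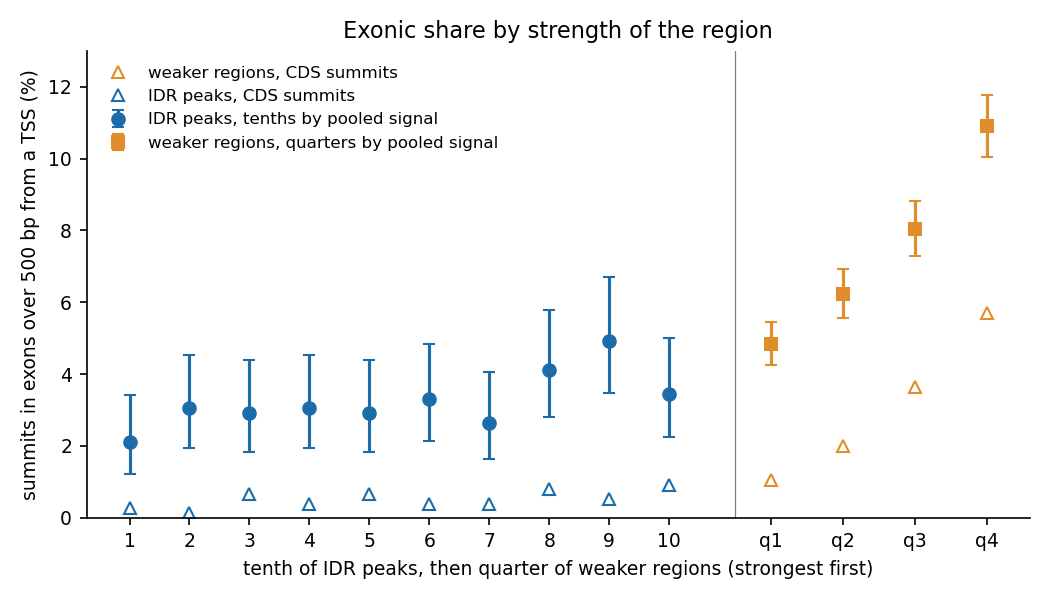
Percent of summits in exons over 500 bp from a TSS, in 10 groups of IDR peaks (blue circles) and 4 groups of weaker regions (orange squares), strongest first, with exact 95% intervals. Open triangles give the CDS summits alone, which reach 5.71% in the weakest group, where the exonic share is 10.9%.

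The repeatability of the members was measured by calling a peak recovered in a replicate when its summit lay within 200 bp of a summit among the 7545 strongest regions there. The IDR set was made from these same replicates, so recovery is not independent of how the peaks were chosen. Of the 245 members, 115 (46.9%; 40.6 to 53.4%) were recovered in all 3 replicates, while 55.9% of all IDR peaks were. Intronic and intergenic peaks away from start sites stood at 54.7% and 52.5%. Regions with a q-value under 0.01 in all 3 replicates matched 132 members (53.9%), against 61.9% of all IDR peaks. In single replicates 78.8%, 75.9% and 73.5% of the members were recovered, and 2 members, both in 3′ UTRs, were recovered in none. Split by pooled rank, the shares were close among strong peaks and apart among weak ones. Among the 3772 strongest IDR peaks, 96 of 106 members (90.6%; 83.3 to 95.4%) were recovered in all 3 replicates, against 90.5% of the 1392 intronic and intergenic peaks. Among the other 3773 peaks, 19 of 139 were (13.7%; 8.43 to 20.5%), against 25.9% of 1779 (23.8 to 28.0%). With recovery counted among the 5000 strongest regions of each replicate, the share was 34.7% for members and 34.3% for intronic and intergenic peaks. This split was made after the overall share was seen. By class, the recovered members were 29 of 62 in 5′ UTRs, 37 of 76 in 3′ UTRs, 16 of 39 in CDS and 33 of 68 in other exons. Of the 16 CDS members that were recovered, 15 were among the 16 in the stronger group.

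The members ranked from 15 to 7538 in the IDR set, with pooled signal values from 206 to 3189. The signal value is the authors' own, and since the peak caller is unknown its scale is too, so it serves here only to order regions. The median percentile of pooled signal was 43.1, where 50 is the middle of the set. It was 46.8 for 5′ UTRs, 41.1 for 3′ UTRs, 37.0 for CDS and 43.9 for other exons, and 45.2 for intronic and 41.7 for intergenic peaks. Within the full list of each replicate, the median percentile was 87.2 for members and 86.5 for the 3171 intronic and intergenic peaks in replicate 1. It was 85.3 and 86.7 in replicate 2, and 85.8 and 85.3 in replicate 3. The differences, members minus others, were 0.700, -1.36 and 0.493 percentile points, a mean of -0.0556 ± 1.13 (SD, n = 3; exact sign-flip permutation test, two-sided, p = 1, where the smallest possible p is 0.25). The replicates thus did not share a direction, and without replicate 2 the mean turned to 0.597. With members and others over 1000 bp from every TSS it was 0.316.

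The strongest member lay in lncRNA:Vinr, a gene of 1 exon on X. Its summit at 12751346 (interval 12750783 to 12751741) was 521 bp from the nearest TSS, that of lncRNA:CR44619, and 1452 bp from its host's own. It ranked 64, 12 and 10 of the 30000 regions of replicates 1, 2 and 3, a mean of 28.7 ± 30.6 (SD, n = 3). No other member ranked better than 86 in any replicate. In replicate 1 that rank was 86, at the 5′ UTR of dop (3L, 15566411 to 15566956), which encodes a kinase of the microtubule-associated class, and the ranks of dop in replicates 2 and 3 were 226 and 174. The 5′ UTR peak of spen, the gene of a large RNA-binding corepressor (2L, 160575 to 161151), ranked 188, 388 and 190. Its summit was 1843 bp from a TSS in an internal exon of 2993 bp, and a second spen summit in the same exon ranked 177, 1743 and 645.

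The other leading members in protein-coding genes lay in each of the UTR and CDS classes. Kr-h1, a zinc finger gene of the juvenile hormone response (2L, 6082853 to 6083544), ranked 475, 455 and 319 in a first exon. The zinc finger gene cbt (2L, 478767 to 479381) ranked 97, 734 and 886, the widest spread of the group. The 5′ UTR peak of Raf, the kinase downstream of Ras, 848 bp from a TSS on X (2296137 to 2296346), ranked 673, 668 and 747. Among CDS members, the homeobox gene otp (2R, 20884424 to 20884752) ranked 494, 208 and 209 and the phosphodiesterase gene Pde1c (2L, 11816426 to 11816730) 653, 973 and 371, both in a last exon. The summits were 4651 and 2796 bp from a TSS. The leading 3′ UTR member was that of sls, which encodes a titin-like muscle protein (3L, 2089770 to 2090223), with ranks of 378, 573 and 520. Its summit lay 427 bp from the nearest 3′ end of an annotated sls transcript. That is not the end of the gene, since the summit was 33.6% of the way along it.

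Noncoding genes other than lncRNA:Vinr held 6 of the 15 best members. lncRNA:CR45531 (X, 6861444 to 6861916) ranked 120, 266 and 410 at a summit 1351 bp from its TSS. lncRNA:Hsromega, the heat-inducible nuclear RNA gene (3R, 21297386 to 21297871), ranked 147, 319 and 522. lncRNA:CR42839 (3R, 16005003 to 16005551) ranked 118, 444 and 452. lncRNA:CR43459 (3R, 10097487 to 10098221) ranked 110, 777 and 378. In these 4 genes the rank in replicate 1 was the best of the 3. The last pair of the 15 were neighbouring summits of lncRNA:CR43334, 200 bp apart, which matched the same region of each replicate and so share the ranks 619, 788 and 936. Such sharing touched 18 members in each replicate.

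**Figure D3:**
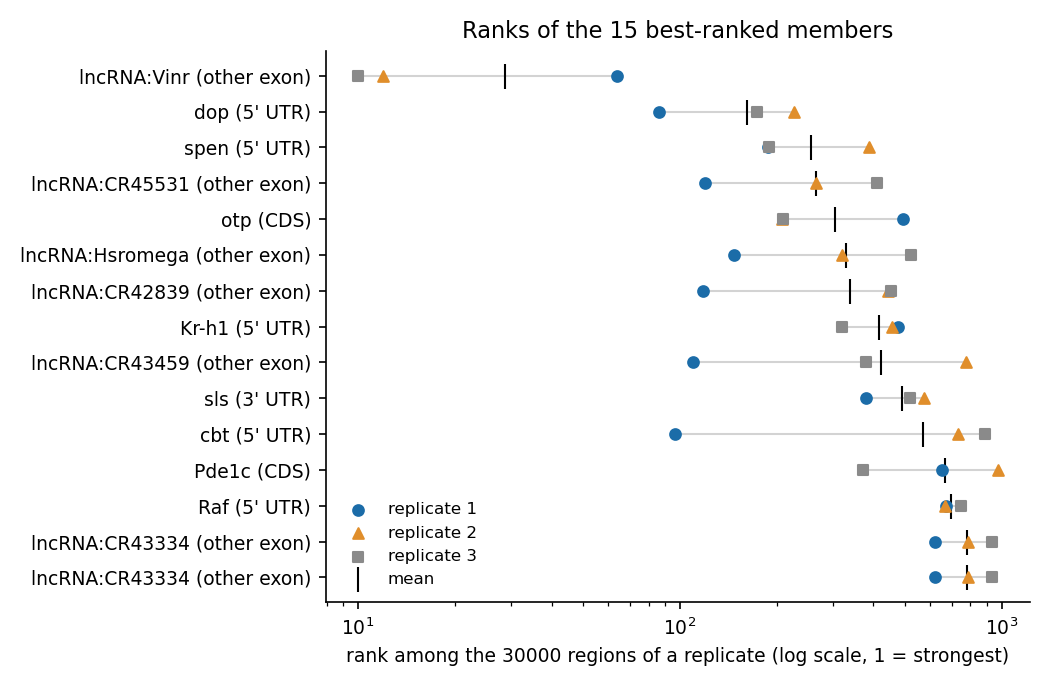
Rank of the 15 best members among the 30000 regions of each replicate (log axis, 1 is the strongest), with the mean as a black tick and the exon class after the gene name. The lncRNA:Vinr peak lies between 10 and 64, and the next, at dop, between 86 and 226.

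The other leading members of each class followed at lower ranks. In 3′ UTRs they were CG7872 (pooled rank 900, 77 bp from the 3′ end of the gene), by, which encodes tensin (1100), CG14440 (1140) and stas (1154). In CDS they were Dyro (934), the actin-binding protein gene bif (1732) and Sdb (1888). The Dyro summit fell in an exon of 33 bp, the shortest of all members, so its peak of 359 bp covered mainly other sequence.

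Most member summits were well inside exons. The window of 100 bp on each side was wholly exonic for 197 of the 245 (80.4%), though for only 21 of the 39 CDS members. Among the 5′ UTR members 39 were in a first exon, and in 3′ UTRs 48 of 76 were in a last exon and 23 in the single exon of a gene. Of the 3′ UTR summits, 48 of 76 (63.2%; 51.3 to 73.9%) lay within 500 bp of the nearest 3′ end of any annotated transcript of their host. That end need not be the end of the gene. Weaker 3′ UTR regions had almost the same share, 63.7% of 477 (59.2 to 68.1%). The median distance to a TSS was 1269 bp (502 to 15703 bp) over all members, 791 bp in 5′ UTRs, 1792 bp in 3′ UTRs, 2085 bp in CDS and 1150 bp in other exons. The nearest TSS was the host's own for 160 members.

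The threshold of 500 bp cut through a continuous range, and 90 members were within 1000 bp of a TSS. Just outside it were the 5′ UTR summits of Fbl6 and CG14442, each 502 bp away with pooled ranks 2661 and 3158, and Ocrl, 503 bp away at rank 6178. Just inside it, and so not members, were summits in lncRNA:CR44203 and CG12581 at 499 bp, with ranks 660 and 6709, and lncRNA:CR45793 at 498 bp with rank 6645. A distance of 200 bp would give 452 members, and 1000 bp would give 155. Peaks in exons within 500 bp of a TSS numbered 1462. The exonic share of peaks was 11.8% (9.63 to 14.4%) from 500 to 1000 bp, 9.32% from 1000 to 2000 bp, 6.24% from 2000 to 5000 bp and 1.64% (0.875 to 2.78%) beyond. In weaker regions the same bins held 22.4%, 15.1%, 7.80% and 3.50%, higher in each bin. Some start sites in the annotation are the ends of mature microRNA entries, and these were the nearest TSS for 7 members.

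The 13 members beyond 5000 bp included hosts with known roles in development. The farthest, 15703 bp from a TSS, lay in the 3′ UTR of Glut4EF, a transcription factor gene, at pooled rank 1668. Su(z)2, a Polycomb group gene, had a 3′ UTR summit 9512 bp from a TSS (rank 2972), and hth, a homeobox gene, a CDS summit at 9069 bp (rank 1974). The RNA-binding protein genes ps and fne had 3′ UTR summits at 7972 and 6598 bp, and the polarity gene baz and the Hippo pathway kinase gene wts had 5′ UTR summits at 6462 and 6113 bp. These far members were named after their values were seen.

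Summits beside the members were counted next. Another IDR summit lay within 1000 bp of 96 members (39.2%), near the 37.9% of intronic peaks. A peak at a TSS lay within 1000 bp of 35 members (14.3%), against 8.07% of intronic and 10.8% of intergenic peaks. This was mostly at 5′ UTRs, with 20 of 62 (32.3%), whereas CDS had 2 of 39. Members also lay nearer to start sites, at a median of 1269 bp against 2351 bp for intronic and 2084 bp for intergenic peaks. The part of this distance in the shares was not tested. By arm, the members were 35 on 2L, 54 on 2R, 47 on 3L, 58 on 3R and 51 on X. They were 4.31% of the X peaks (3.23 to 5.63%) and 2.61 to 3.43% of those of the other large arms, and 0 of 20 peaks on chromosome 4, where a share of up to 16.8% is within the interval.

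The members lay in exons of 206 genes, 157 protein-coding and 49 noncoding, of which 180 held 1 member and 20 held 2. Many host genes also had a peak within 500 bp of a TSS: 99 of the 157 coding hosts (63.1%; 55.0 to 70.6%), against 27.9% of all protein-coding genes. Noncoding hosts had 21 of 49 (42.9%; 28.8 to 57.8%), against 10.5% of all noncoding genes. The hosts were also longer, with a median of 7845 bp for coding hosts against 2166 bp for all, and 2503 against 455 bp for noncoding ones. The part of gene length in these shares was not tested.

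A few genes held several members. lncRNA:CR43334 held 10, spen, by, CAP, lncRNA:CR43650 and CG1888 held 3 each. The members of spen were 3 summits of 1 long 5′ UTR exon and those of by were in its 3′ UTR, with pooled ranks from 1100 to 1770 and all 3 recovered in every replicate. CAP, which encodes a vinculin-binding adaptor protein, had summits in a pair of 5′ UTR exons and in CDS. The 3 summits in CG1888, all in its 3′ UTR, were weaker, with pooled ranks from 3662 to 6208 and none recovered in all 3 replicates.

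lncRNA:CR43334 (3L, 628435 to 643900) is the host transcript of bantam (mir-ban), a microRNA that promotes growth and blocks cell death. It is a single exon of 15466 bp with 15 IDR summits, of which 5 counted as TSS peaks. The 10 members lay in 2 stretches, 6 from 1110 to 5257 bp and 4 from 12374 to 14744 bp after the gene start. The bantam hairpin lies between the members of the second stretch, at 13773 to 13853 bp. The strongest member of the first stretch, at 3762 bp, had a pooled rank of 668 and holds the GC box printed above. The member 689 bp past bantam had a pooled rank of 778 and ranks of 335, 1208 and 2285 in the replicates. Of the 10, 6 were recovered in all 3 replicates.

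**Figure D4:**
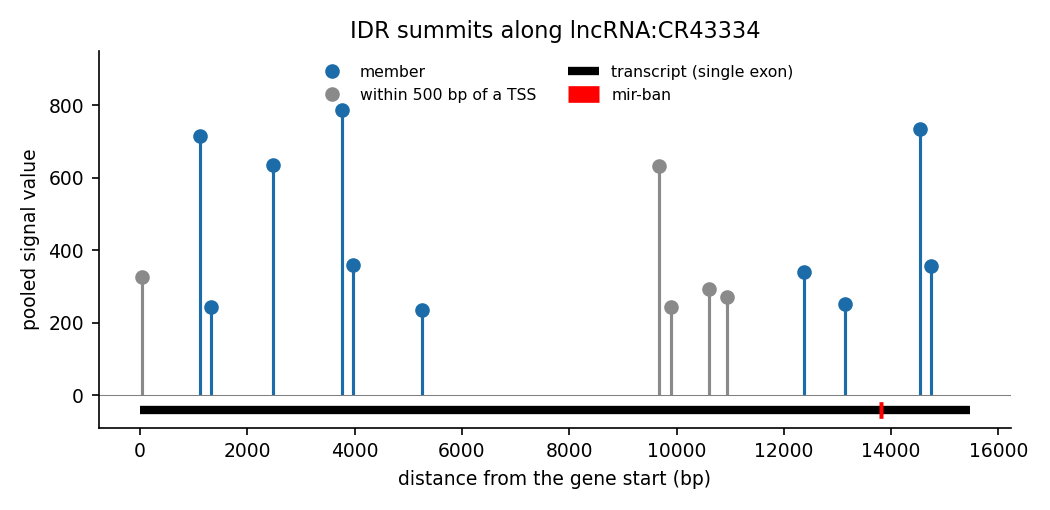
Pooled signal value of the 15 IDR summits along lncRNA:CR43334 against the distance from the gene start in bp, with members in blue, summits within 500 bp of a TSS in grey, the transcript in black and bantam in red. Members rise to 787 at 3762 bp and to 735 at 14542 bp, and none lies between 5257 and 12374 bp.

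Other microRNA host transcripts appeared too. Of the 49 noncoding hosts, 8 contained a microRNA gene, and these 8 held 20 members. So did 37 of the 2520 noncoding RNA genes in the annotation when microRNA genes and their mature products are not counted. Noncoding hosts were longer than noncoding genes as a whole, as given above, and the part of gene length in this contrast was not tested. lncRNA:CR43459, host of mir-277 and mir-34, had its summit 2110 bp from mir-277. lncRNA:CR43650, host of mir-8, had members at pooled ranks 2121, 5528 and 6501, from 1535 to 2801 bp past the microRNA. lncRNA:CR46006 holds mir-276a, lncRNA:CR45916 mir-9a, lncRNA:iab4 of the bithorax complex mir-iab-4, and lncRNA:CR45911 mir-2c, mir-13a and mir-13b-1. Their best pooled ranks were 3711, 7313, 4565 and 4360. lncRNA:Hsromega holds mir-4951, 19011 bp from its member.

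Of 17 gene lists that fit embryonic regulation, 10 had a host among their members. Over all protein-coding genes, 1.13% were hosts. Muscle and cytoskeleton genes had 3 hosts of 26: sls, the transcription factor gene Mef2 (5′ UTR, pooled rank 2306) and the tropomyosin gene Tm1 (CDS, 7098). Polycomb and Trithorax group genes had 3 of 32: Su(z)2, the Mediator subunit gene skd (5′ UTR, 6610) and jing (CDS, 6642). Nuclear receptor and ecdysone genes had 2 of 29, Kr-h1 and Hr4 (3′ UTR, 2272), and circadian clock genes 2 of 11, Pdp1 (5′ UTR, 1829) and cwo (5′ UTR, 4865). EGF and FGF receptor pathway genes had 2 of 23, the ligand gene vn with 2 weak 5′ UTR summits (4079 and 6136) and the repressor gene aop (5′ UTR, 6393). The matched genes of this list did not include Raf, described above, whose 5′ UTR member had a pooled rank of 634. Nor did they include dos, with 5′ UTR members at pooled ranks 2649 and 3432. RNA-binding regulators had 2 of 28, elav (3′ UTR, 5459) and fne (3′ UTR, 6112), both neuronal genes. Of the 30 genes in the neuronal list, elav was also the 1 host. That list did not include fne or the host Syx1A (3′ UTR, 5122).

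Stress and bZIP genes had 2 hosts of 16, cbt and Pdp1. Genes of the Wnt, Hedgehog and Dpp pathways had 1 of 32, shn (5′ UTR, 5165), and dosage compensation and nuclear RNA genes 1 of 9, lncRNA:Hsromega. No member lay in any gene of the Notch (20 genes), architectural and core-promoter (19), cytoplasmic ribosomal protein (24), heat shock and chaperone (21), insulin, TOR and metabolism (17), segmentation and Hox (30) or translation factor (18) lists. At the host share of 1.13% over all protein-coding genes, none is the most likely count for a list of this size. The lists do not hold every gene of a pathway. The insulin, TOR and metabolism list did not include the host Pi3K21B (5′ UTR, 2806). No test of a list was run.

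The sequence at member summits was richer in G and C than that beside them. In windows reaching 100 bp to either side, the median GC content was 45.8% (26.9 to 71.1%), against 40.3% in flanks centred 500 bp away. It was 54.2% in CDS, 46.0% in other exons, 45.8% in 5′ UTRs and 41.8% in 3′ UTRs. Intronic peaks had 43.3% and intergenic peaks 43.8%, each against 39.3% in their own flanks. Weaker exonic regions had 48.3% against 41.8% in theirs, and TSS peaks 42.8% against 43.3%. A higher value at the summit was thus not particular to members. Weaker regions in CDS had 54.7%, close to the value of the CDS members. Flanks were not limited to exons. The median distance from a member summit to the edge of its exon was 425 bp, and 119 bp in CDS. Many flanks thus lay outside the exon, and the part of this in the differences from flanks, here and for motifs below, was not tested.

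Of 35 short motifs, 14 were found in a larger share of member windows than of flanks, 19 in a smaller share and 2 in an equal share. Both strands were searched, and matches of different motifs may overlap. The GC box showed the largest difference. It was in 41 of 245 members (16.7%; 12.3 to 22.0%), 5.31% of flanks, 10.5% of intronic and intergenic peaks and 12.9% of weaker exonic regions. Among CDS members it reached 13 of 39 (33.3%), where weaker CDS regions had 15.9%. In 21 of the 41 it lay within 50 bp of the summit. Boxes spread evenly over windows of 100 bp to either side would give a similar count. The difference from the flanks was 11.4 percentage points and fell to 4.49 with 50 bp on each side. Members with the box had a median GC content of 49.8%, and the part of base composition in the difference was not tested.

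The CTCF core was in 15 members (6.12%; 3.47 to 9.90%), 2.24% of flanks, 2.96% of intronic and intergenic peaks and 3.26% of weaker exonic regions. Besides the members printed above, otp and Mef2 held it. The core of the site of the boundary factor BEAF-32, CGATA, was in 27.3% of members and 21.6% of flanks, though in 30.2% of all other IDR peaks, a difference from the flanks that shrank from 5.71 to 1.84 percentage points with 200 bp on each side. The GAGA factor site GAGAGAG was in 8.98% of members and 5.10% of flanks, with 14.5% in 5′ UTRs, 13.2% in other exons and 0 of 39 in CDS.

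Other named motifs were in a smaller share of members than of flanks. The TATA box TATAAA was in 18.4% (13.7 to 23.8%) against 26.1% of flanks, and in 5.13% of CDS members. The homeodomain core TAATTA was in 6.53% (3.78 to 10.4%) against 12.7%. The Bicoid site TAATCC was in 4.49% against 7.96%, and the Initiator TCAGTT in 8.98% against 12.4%. Weaker exonic regions had 15.7%, 7.33%, 6.40% and 8.19% of these 4 motifs. The polyadenylation signal AATAAA was in 35.5% of members and 38.6% of flanks. In 3′ UTR members it was on the sense strand in 17 and on the antisense strand in 18 of 76. The CAG repeat CAGCAGCAG was in 4.08% of members and of flanks, 1.55% of other IDR peaks and 4.66% of weaker exonic regions.

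The core-promoter elements DRE (TATCGATA) and Motif 1 (GGTCACACT), which were chosen for naming after their values were seen, were in 0 of 245 members. That count allows a share of up to 1.49% by the exact interval. They were in 2.41% and 1.51% of all other IDR peaks, but in 0.221% and 0.0946% of intronic and intergenic ones. At this number of members a share as low as that was not detectable.

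**Figure D5:**
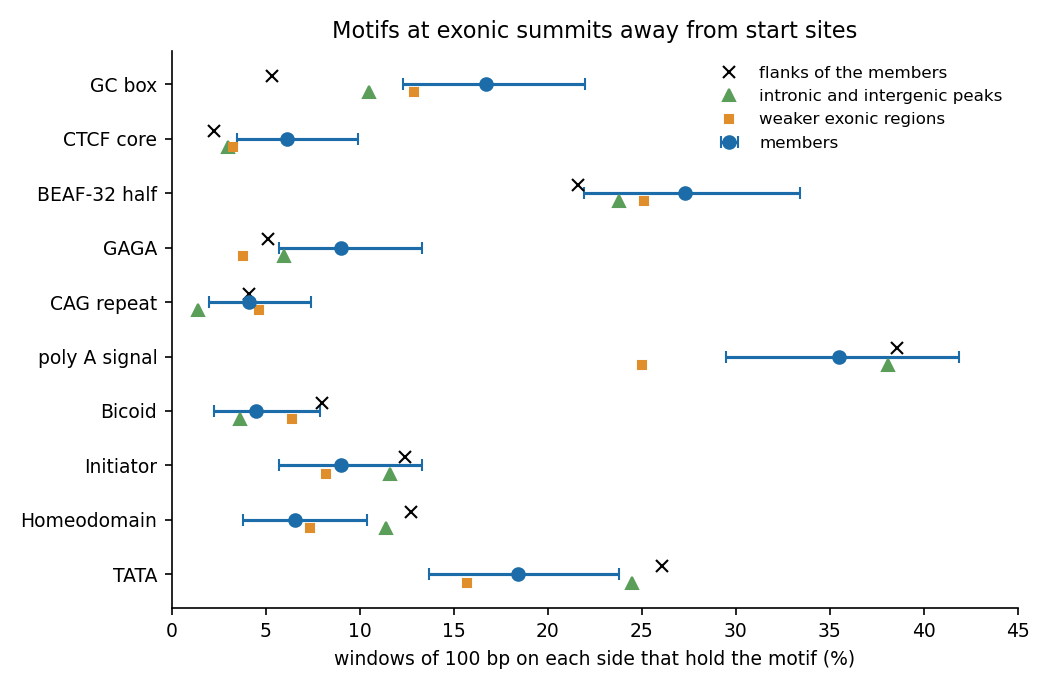
Percent of summit windows, 100 bp to either side, that hold each named motif, for members (blue, with exact 95% intervals), their flanks (crosses), intronic and intergenic peaks (triangles) and weaker exonic regions (squares). The interval of the CTCF core (3.47 to 9.90%) lies above the other 3 shares, that of the GC box (12.3 to 22.0%) above all but the weaker exonic regions at 12.9%, and those of the TATA box and the homeodomain core lie below the flanks.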

How the data were processed

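Regions, summits, signal values and −log10 q-values are as the authors deposited them, on dm6. The replicates and their pool, 30000 regions each, were called against 1 control alignment, per the file headers. For the aligner and the peak caller, names were not given in the sources used here. Signal values, whose scale is unknown without the authors' caller, served to rank regions inside each list, and the deposited lists give no read counts. The lists on dm3 were not used.

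TSSs and exons came from Ensembl release 115, without transposable elements. Where annotations overlap, a base took the first of 5′ UTR, 3′ UTR, CDS and other exon. Unmatched members ranked last in a replicate. The 35 motifs were searched for 100 bp to either side of a summit and in 2 flanks centred 500 bp away. The members and lists were chosen with earlier results of these data known. Named are the hosts of the 15 members with the best mean rank, the 5 strongest members of each class, genes with 3 or more members, up to 3 hosts per list, the 3 members and 3 exonic summits nearest the threshold, and the 8 motifs with the largest difference from flanks plus the polyadenylation signal and the CAG repeat. MicroRNA hosts, members over 5000 bp from a TSS and any further names were picked with their values known. Classification, matching, motif search and the permutation test were tested on simulated data. Python 3.11.15, numpy 2.4.6, pandas 2.3.3, scipy 1.17.1 and matplotlib 3.10.9 were used. Replicate numbers are those of the labels. Alternatives were other TSS distances, annotations, class orders, match rules, windows and left-out replicates.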

Additional observations from a re-analysis of the deposited data

How the results depend on the processing

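The number of members was 452 with a TSS distance of 200 bp, 155 with 1000 bp, and 141 to 145 on leaving out 1 replicate at a time (peaks recovered in both others). The share of IDR peaks was 5.99% with 200 bp and 2.05% with 1000 bp. Of the peaks recovered in both others, members were 2.71 to 3.05%. The share was 2.44% with protein-coding genes only and 2.81% in the 3772 strongest peaks. RefSeq annotation, chosen after seeing the data, gave the same 245 members, and 1 summit per interval gave 241. Of the members, 5′ UTRs were 39.6% and 3′ UTRs 19.0% with 200 bp, and 12.3% and 41.9% with 1000 bp. Recovery in all 3 replicates was 36.3% within 100 bp, 34.7% among the 5000 strongest and 91.0% among all 30000 regions, against 46.2%, 37.5% and 90.9% of all IDR peaks and 45.1%, 34.3% and 93.4% of intronic and intergenic ones. The rank difference turned to 0.316 with a TSS distance of 1000 bp. Members and others over 1000 bp on both sides, chosen after seeing the data, gave identical values in each replicate, so this is no separate check. The difference was -0.433 to 0.597 with a replicate left out and -1.26 with means in place of medians. It was -0.749 without noncoding exons, chosen after seeing the data. The cause was not tested. The 9 named motifs that differed from flanks kept their direction with windows of 50 and 200 bp. Samples could not be paired across groups, because there is no second group of samples. Members and other peaks were compared within each replicate, and the permutation test used these paired differences. With 3 replicates the permutation test cannot give a p below 0.25, and depth is unknown.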
